A study of Rattus norvegicus with 4 samples.

Results

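Genes of purinergic signalling and of extracellular adenosine production were followed from day 5 to day 21 in the rat carotid body (CB), the organ that senses arterial oxygen. The 10 genes were P2rx2, P2rx3, P2ry1, P2ry2, P2ry12, Adora1, Adora2a, Adora2b, Nt5e and Panx1, found by gene symbol among the 32883 genes of the count table, where each has 1 entry. They were measured in RNA from whole CBs of Sprague Dawley rats, for which the labels name no treatment and no altered gene. There were 2 libraries from neonates (day 5, CBs of 6 pups pooled per library by the submitters' description) and 2 from the day 21 rats that the study calls adults (CBs of 3 animals pooled per library). The study's methods give other pool sizes and more replicates per age, and both sexes were included. A pool gives no measure of the spread between animals, so each p-value below refers to the spread between pools.

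In the CB, glomus cells release ATP when oxygen falls, and ATP excites the endings of the sinus nerve through ligand-gated channels built from P2rx2 and P2rx3 subunits. Released ATP also reaches G protein-coupled P2ry receptors on glial, vascular and immune cells. On the cell surface ATP is cut in steps to AMP, and the enzyme encoded by Nt5e (CD73) turns AMP into adenosine. Adenosine acts back on glomus cells and nerve endings through receptors of the Adora family, of which Adora2a and Adora2b raise cAMP and Adora1 lowers it. Panx1 encodes a membrane channel that lets ATP out of cells.

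Between day 5 and day 21 the gene for the adenosine-forming enzyme and those for 3 G protein-coupled nucleotide receptors were higher in adults, whereas the genes for an adenosine receptor and an ATP-gated channel subunit were higher in neonates. Nt5e was 3.85-fold higher in adults, P2ry1 2.86-fold and P2ry2 2.44-fold, whereas Adora2a was 2.05-fold higher in neonates. P2ry12 was 1.60-fold higher in adults and P2rx2 1.62-fold higher in neonates, both at an adjusted p under 0.05 and below a 2-fold change. The neonatal results were less firm. With libraries scaled by their size alone, the P2rx2 log2 fold change was 0.45 (adjusted p = 0.11 from edgeR). That of Adora2a was then 0.79, below 2-fold. Without adult replicate 2 the log2 fold changes were 0.41 for P2rx2 and 0.87 for Adora2a. P2rx3, Adora2b and Panx1 did not pass the test, and Adora1 had too few reads to be tested. A gene is described as called where edgeR's quasi-likelihood test gave it a Benjamini-Hochberg adjusted p under 0.05, over all genes tested, and its fold change was at least 2. By this rule 3 of the 9 members tested were called toward adults, where 13.2% of all 13843 genes tested were called in that direction. Another 1 of the 9 was called toward neonates, against 7.68% of all genes. An adjusted p under 0.05 at any fold was common in these data, at 62.3% of all genes tested, and 6 of the 9 members had one. In CPM, a level defined below, the libraries of the ages did not overlap for 7 of the 9, which was the case for 83.1% of all genes tested. For 5 of these both adult libraries were the higher (55.3% of all genes) and for 2 both neonatal ones (27.9%). Since the tissue was sequenced whole, fewer cells of a type and less RNA per cell cannot be told apart in any of these values.

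The libraries held between 36286191 and 39476110 estimated reads. At these depths 3 reads correspond to 0.0760 to 0.0827 CPM. CPM, the level used throughout, is a gene's count scaled to the same total in every library. Fold changes are from the model, which scales libraries by edgeR's TMM factors. These factors were 0.902 and 0.935 in neonates and 1.08 and 1.10 in adults, and mitochondrial genes took 15.6% to 18.7% of reads in neonates against 9.06% to 9.08% in adults. The model therefore placed neonates higher by about 0.25 on the log2 scale than CPM alone, since over all genes tested the log2 fold change had a median of -0.0029 with TMM and -0.25 with library size. With library size alone 704 genes were called toward neonates and 2550 toward adults, in place of 1063 and 1822. CPM is not divided by transcript length, so levels of different genes are not compared. With 2 libraries against 2, exact permutation of the libraries for 1 gene cannot go below p = 0.333, and the adjusted p-values come from edgeR's model, which shares its estimate of spread across genes.

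All 8 glomus cell markers used, among them Th, Ddc and Chga, were detected in all libraries, with a summed level of 4692 to 5782 CPM in neonates and 5085 to 6070 CPM in adults. Parathyroid genes stood apart in the neonatal libraries. Pth, Gcm2, Casr and Rhcg summed to 1646 CPM in neonate replicate 1 and to 199.5 CPM in neonate replicate 2, but only 0.159 and 0.165 CPM in the adult libraries, where Pth and Gcm2 were at 0. Results for pathway genes that rest on 1 neonatal library are therefore given below without it, while the marker genes were not recomputed.

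**Figure D1:**
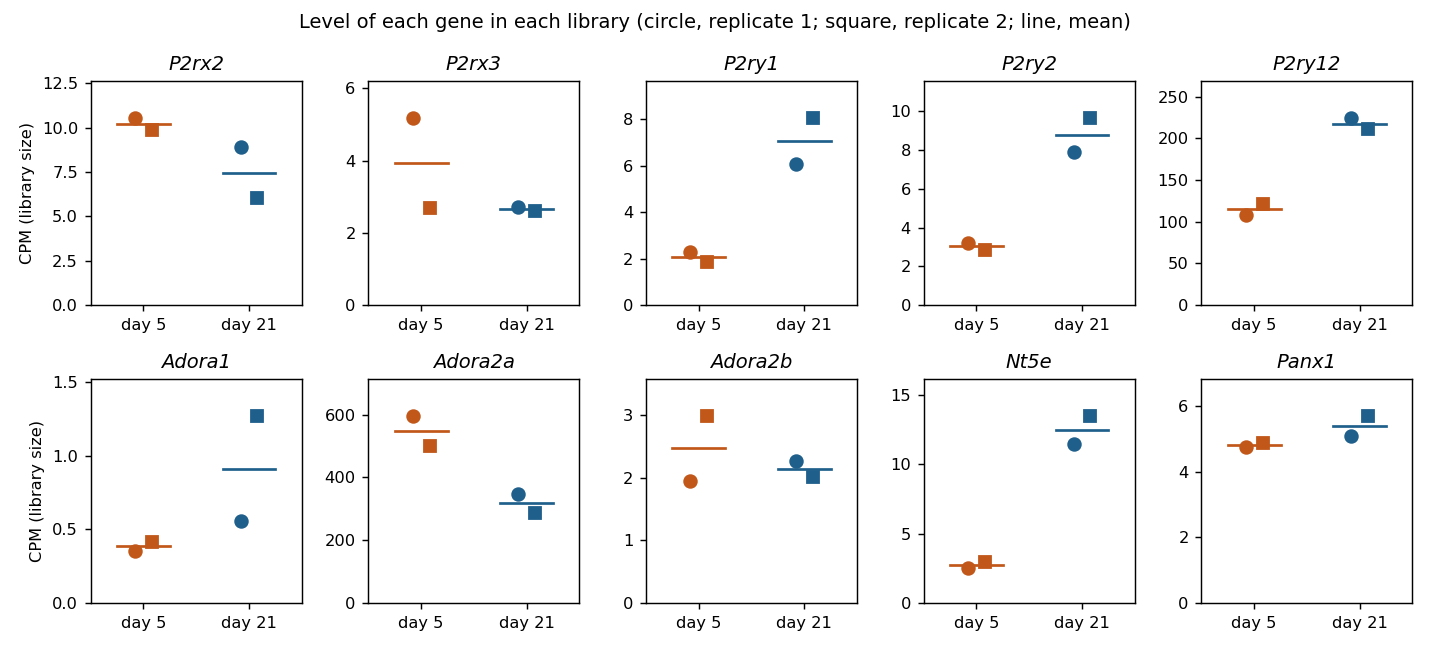
CPM of library total (vertical axes, each from 0) of the 10 genes in the 2 libraries of day 5 (orange) and the 2 of day 21 (blue), with circles for replicate 1, squares for replicate 2 and a line at the mean. P2ry1, P2ry2, P2ry12 and Nt5e lie higher in both adult libraries, Adora2a lies higher in both neonatal libraries, and the ages overlap for P2rx3 and Adora2b.

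The members that were higher in adults and passed 2-fold, P2ry1, P2ry2 and Nt5e, all have a promoter in the RefSeq table used (assembly GRCr8, 250 bases before to 50 bases after the annotated start of transcription). Their promoters are shown because these genes moved in the same direction. Sequences are read 5′ to 3′ along the gene's own strand. Capitals mark the GC box GGGCGG and the core ACGTG of the hypoxia response element, each searched on both strands.
P2ry1, chr2:147391411-147391710, plus strand: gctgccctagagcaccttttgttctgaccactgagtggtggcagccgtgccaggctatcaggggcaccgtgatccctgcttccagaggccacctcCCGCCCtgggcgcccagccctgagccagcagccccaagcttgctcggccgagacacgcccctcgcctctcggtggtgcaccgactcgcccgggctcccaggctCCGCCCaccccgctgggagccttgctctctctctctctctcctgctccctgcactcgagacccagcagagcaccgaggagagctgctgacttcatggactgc
P2ry2, chr1:164779439-164779738, minus strand: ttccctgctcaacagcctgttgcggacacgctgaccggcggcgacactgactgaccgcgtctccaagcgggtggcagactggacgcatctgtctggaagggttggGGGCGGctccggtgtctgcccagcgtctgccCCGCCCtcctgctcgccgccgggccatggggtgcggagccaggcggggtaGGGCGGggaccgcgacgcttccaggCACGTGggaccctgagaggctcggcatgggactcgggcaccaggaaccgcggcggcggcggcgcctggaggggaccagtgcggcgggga
Nt5e, chr8:98150675-98150974, plus strand: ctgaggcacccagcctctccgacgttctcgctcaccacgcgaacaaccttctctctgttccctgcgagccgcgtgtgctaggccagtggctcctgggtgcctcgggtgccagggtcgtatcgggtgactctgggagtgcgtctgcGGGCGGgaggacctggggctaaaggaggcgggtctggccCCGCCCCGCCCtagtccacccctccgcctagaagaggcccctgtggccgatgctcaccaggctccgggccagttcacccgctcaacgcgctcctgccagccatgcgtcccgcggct

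All 3 windows were rich in G and C, at 67.7% in P2ry1, 73.0% in P2ry2 and 69.3% in Nt5e, against a median of 51.7% over all 33469 promoter windows of the table. G and C content in the other members' windows was 72.0% in Adora2b and 55.0% to 60.0% in P2rx3, Adora1 and Panx1. The GC box occurred 2 times in P2ry1, 3 times in P2ry2 and 3 times in Nt5e, with a pair of its copies sharing a base in Nt5e. It was found in 33.1% of all windows. Of the 7 members with a window in the table, 6 held a GC box, P2rx3 in only 1 of its 2 windows, so it was not limited to the genes that moved toward adults. The ACGTG core was in the P2ry2 window, where both strands match within the palindrome CACGTG, and in 19.3% of all windows. The cAMP response element TGACGTCA was in none of the members' windows and in 1.83% of all. P2rx2, P2ry12 and Adora2a have no entry. These matches describe the letters in the windows and are no measure of binding.

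P2rx2 (ENSRNOG00000037456) and P2rx3 (ENSRNOG00000008552) encode the subunits of the ATP-gated cation channels of sensory nerve endings, whose cell bodies lie in the petrosal ganglion, outside the CB. P2rx2 had 10.5 and 9.87 CPM in the neonatal libraries and 8.89 and 6.01 CPM in the adult libraries, with no overlap and the lowest value in adult replicate 2. Its log2 fold change was 0.70 (standard error 0.23, 95% interval 0.18 to 1.21), and its adjusted p was 0.025 by edgeR. Without adult replicate 2 the log2 fold change was 0.41, and with library size alone it was 0.45 (adjusted p = 0.11 from edgeR). Its pass at an adjusted p under 0.05 therefore depends on TMM scaling, and its estimate on adult replicate 2.

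P2rx3 had 5.17 CPM in neonate replicate 1, and the other libraries lay close together at 2.70 CPM in neonate replicate 2 and 2.73 and 2.62 CPM in adults. The difference did not pass (log2 fold change 0.81, standard error 0.36, adjusted p = 0.075 from edgeR). Without neonate replicate 1 the log2 fold change was 0.24 (adjusted p = 0.53 from edgeR), and without neonate replicate 2 it was 1.24 (adjusted p = 0.0025 from edgeR). The library with the high P2rx3 value is also the one with the high parathyroid genes, and their part in the result was not tested. Ratios of P2rx2 to P2rx3 reads within a library, which do not depend on scaling, were 2.03 and 3.65 in neonates and 3.26 and 2.29 in adults, and so overlapped between the ages.

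Of 9 neuronal markers listed, 6 passed the same test toward neonates, among them the neurofilament genes Nefl, Nefm and Nefh, and 1 toward adults (Elavl3). Over all genes tested 31.2% passed toward neonates and 31.1% toward adults. The summed level of the neuronal markers was 1908 to 1982 CPM in neonates and 1626 to 1933 CPM in adults, and none was at 0. Both P2rx2 and the neuronal list had their lowest value in adult replicate 2. The study describes glomus cells as neuronal in origin, and the list was not shown to separate nerve RNA from glomus cell RNA. What part nerve and neuron RNA had in the P2rx2 difference was not tested.

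Of the 5 other ATP-gated channel genes, 2 were higher in adults at an adjusted p under 0.05 and 3 did not pass. By the same rule 31.1% of all genes tested were higher in adults. P2rx7, whose channel is best known from macrophages and glia and opens at high ATP, had 11.7 and 16.6 CPM in neonates and 39.8 and 60.8 CPM in adults. It was 3.00-fold higher in adults (log2 fold change -1.59, standard error 0.20, adjusted p = 0.00018 from edgeR). P2rx4, which the gene table places next to P2rx7 with no protein-coding gene between them, had 30.1 to 36.8 CPM in all libraries (log2 fold change 0.079, 95% interval -0.14 to 0.30, adjusted p = 0.49 from edgeR), with the opposite sign under library size alone. The ratio of P2rx7 to P2rx4 reads was 0.390 and 0.518 in neonatal libraries and 1.21 and 1.66 in adult ones, a 3.15-fold shift between ages with no overlap.

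P2rx5 had 0.557 and 0.441 CPM in neonates and 1.46 and 1.57 CPM in adults (2.54-fold, adjusted p = 0.019 from edgeR, and 0.062 with DESeq2). It was tested only because the adult libraries exceed 1 CPM, so its presence among the genes tested already favoured a difference. For P2rx6 the neonatal libraries were 2.86 and 1.27 CPM and the adult ones 1.32 and 1.13 CPM (adjusted p = 0.080 from edgeR). As for P2rx3, the high value was that of neonate replicate 1, without which the log2 fold change was 0.28. P2rx1 did not pass, with 6.62 to 10.1 CPM over the 4 libraries (log2 fold change 0.18, adjusted p = 0.51 from edgeR) and the opposite sign under library size alone.

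Nucleotide receptors coupled to G proteins were higher in adults wherever they passed the test. P2ry1 (ENSRNOG00000014232), a receptor for ADP that raises cell calcium, had 2.28 and 1.87 CPM in neonates and 6.09 and 8.05 CPM in adults. The lower adult value was well above both neonatal ones. Its log2 fold change was -1.52 (standard error 0.28, adjusted p = 0.0014 from edgeR), a 2.86-fold difference with a 95% interval of 1.85 to 4.42.

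P2ry2 (ENSRNOG00000019283) encodes a receptor for ATP and UTP that CB glia use to answer ATP with a calcium rise. It had 3.19 and 2.86 CPM in neonates and 7.89 and 9.62 CPM in adults, again with no overlap. The log2 fold change was -1.28 (standard error 0.24, adjusted p = 0.0015 from edgeR), or 2.44-fold with a 95% interval of 1.68 to 3.54. Its neighbour in the gene table, the UDP receptor gene P2ry6, had 1.85 and 2.62 CPM in neonates and 3.04 and 2.84 CPM in adults (log2 fold change -0.15, 95% interval -0.87 to 0.56, adjusted p = 0.68 from edgeR). The ratio of P2ry2 to P2ry6 reads was 1.73 and 1.09 in neonates and 2.59 and 3.39 in adults.

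P2ry12 (ENSRNOG00000013902), an ADP receptor that lowers cAMP and is known from microglia and platelets, had 108 and 122 CPM in neonates and 224 and 211 CPM in adults. The spread within an age was small beside the gap between ages. The log2 fold change was -0.68 (standard error 0.081, 95% interval -0.86 to -0.49, adjusted p = 0.00013 from edgeR), so the interval stayed under a 2-fold difference. P2ry13, adjacent to P2ry12 and also a receptor for ADP, had 1.39 and 2.16 CPM in neonates and 3.02 and 3.996 CPM in adults (log2 fold change -0.74, standard error 0.34, adjusted p = 0.084 from edgeR). With library size alone the P2ry13 log2 fold change was -0.98 (adjusted p = 0.034 from edgeR). Without neonate replicate 1 it was -0.47, and without neonate replicate 2 it was -1.04. The ratio of P2ry12 to P2ry13 reads overlapped between ages, at 77.7 and 56.4 in neonates and 74.2 and 52.8 in adults.

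P2ry14, a receptor for UDP-glucose in the same gene cluster, had 9.58 and 11.1 CPM in neonates and 12.7 and 15.5 CPM in adults. Its log2 fold change was -0.21 (adjusted p = 0.30 from edgeR), and with library size alone -0.45 (adjusted p = 0.043 from edgeR). P2ry4, a UTP receptor gene, had 0.608 and 0.364 CPM in neonates and 1.14 and 2.45 CPM in adults (3.08-fold, adjusted p = 0.021 from edgeR), and like P2rx5 it entered the test through the adult libraries alone. Without neonate replicate 2 its adjusted p was 0.061 in edgeR's test. P2ry10 stayed below 1 CPM in all libraries. Of the 7 genes of this receptor group that were tested, 4 were higher in adults at an adjusted p under 0.05 and 3 did not pass, where 31.1% of all genes tested were higher in adults by the same rule.

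Several markers of macrophages, glia and vessel walls were also higher in adults, and others were not. At an adjusted p under 0.05, 31.1% of all genes tested were higher in adults and 31.2% in neonates. Of 8 macrophage and microglia markers, 5 were higher in adults at an adjusted p under 0.05 (Csf1r, Mrc1, C1qa, Cd163 and Ptprc) and 1 was higher in neonates (Aif1). The list summed to 76.2 and 86.8 CPM in neonates and to 145 and 146 CPM in adults, with none at 0. Its median log2 fold change was -0.75. The 6 platelet markers summed to 7.35 to 7.73 CPM in neonates and 7.49 to 11.4 CPM in adults. Of these, Gp9 and Gp1bb did not exceed 0.253 CPM in any library and Ppbp was at 0 in the neonatal ones, while Pf4 was higher in neonates and Itgb3, which other cells also use, in adults.

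Of the 5 glial markers used, 2 were higher in adults (Gfap and Cdh19) and 2 in neonates (Sox10 and Fabp7). The glial sum was 366 and 367 CPM in neonates and 530 and 585 CPM in adults. Sums of CPM lack the TMM scaling of the fold changes. Cdh19 alone had 124 and 136 CPM in neonates and 282 and 306 CPM in adults, and the median log2 fold change of the list was 0.017. Smooth muscle and pericyte markers summed to 951 and 1027 CPM in neonates and to 1935 and 2063 CPM in adults, with 3 of 6 higher in adults (Myh11, Rgs5 and Notch3) and 1 in neonates (Pdgfrb). Endothelial markers, with Pecam1 not analysed here, summed to 742 and 812 CPM in neonates and to 952 and 985 CPM in adults, with Tek and Vwf of the 5 tested higher in adults. Lymphocyte markers summed to 3.19 and 4.75 CPM in neonates and to 9.18 and 9.19 CPM in adults, with Cd4 higher in adults and Cd79a in neonates, while Cd3e and Cd8a were at 0 in 1 library each. Thyroid and skeletal muscle markers did not exceed 2.06 and 12.5 CPM in sum, and none of them passed. The median log2 fold change was -0.36 for the smooth muscle and pericyte list and -0.075 for the endothelial list. Rgs5 alone had 272 and 247 CPM in neonates and 1088 and 1062 CPM in adults. The part of these cells, or of glomus cells, in the results for P2ry genes and P2rx7 was not tested.

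**Figure D2:**
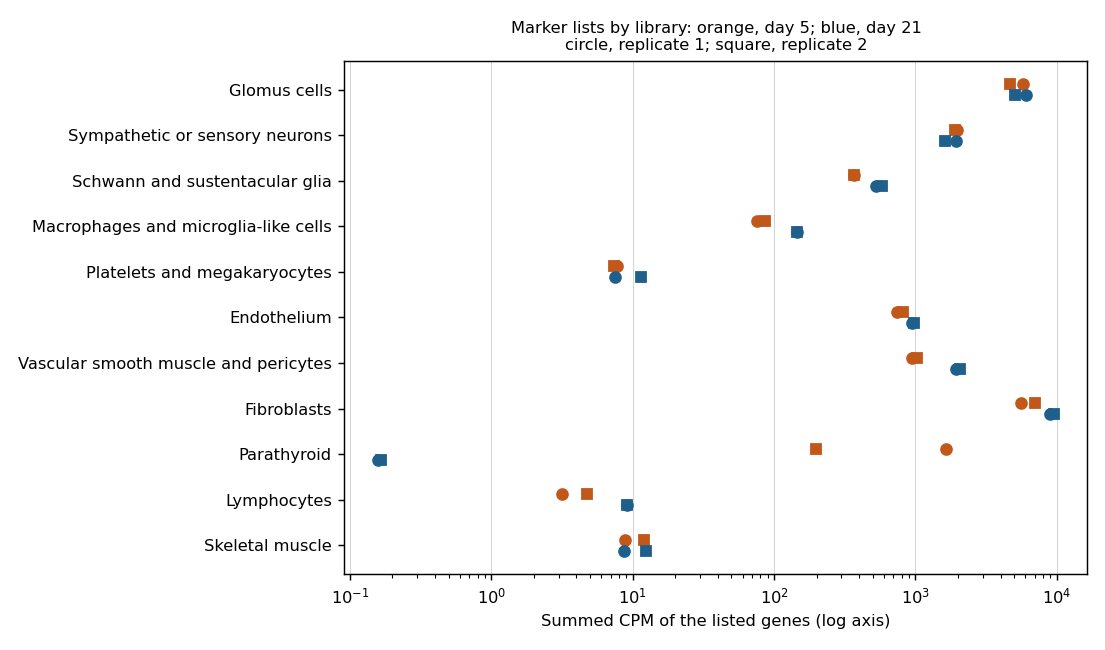
Summed CPM (log axis) of each list of cell type markers in the 2 neonatal libraries (orange) and the 2 adult libraries (blue), with circles for replicate 1 and squares for replicate 2. Macrophage markers sum to 76.2 and 86.8 CPM at day 5 and 145 and 146 CPM at day 21, glomus cell markers overlap between ages, and parathyroid genes are high only in the neonatal libraries.

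Of the adenosine receptor genes, 2 had enough reads to be tested and 1 of them passed. Adora2a (ENSRNOG00000001302), which encodes the receptor through which adenosine excites glomus cells and sinus nerve endings, had 596 and 502 CPM in neonates and 348 and 288 CPM in adults. Both neonatal libraries lay above both adult ones. Its log2 fold change was 1.04 (standard error 0.13, 95% interval 0.74 to 1.33, adjusted p = 0.00016 from edgeR), or 2.05-fold, close to the 2-fold limit used for calls. With library size alone it was 0.79, without neonate replicate 1 it was 0.89, without adult replicate 2 it was 0.87 and among genes with a mean of at least 5 CPM it was 0.999, each below 2-fold. Over all alternatives its adjusted p was at most 0.00064, so the direction held and the 2-fold call did not.

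Adora2b (ENSRNOG00000002922), the low-affinity receptor that also raises cAMP, had 1.95 and 2.99 CPM in neonates and 2.28 and 2.01 CPM in adults. The ages overlapped, and the difference did not pass (log2 fold change 0.44, 95% interval -0.32 to 1.21, adjusted p = 0.28 from edgeR), an interval that still holds a 2-fold difference toward neonates. Adora1 (ENSRNOG00000003442), whose receptor lowers cAMP, had 14 and 16 reads in neonates and 21 and 46 reads in adults. These are 0.355 and 0.416 CPM (exact Poisson 95% intervals 0.194 to 0.595 and 0.238 to 0.675) against 0.556 and 1.27 CPM (0.344 to 0.850 and 0.928 to 1.69), intervals that cover counting error only. Only adult replicate 2 exceeded 1 CPM, so Adora1 was below the filter of 1 CPM in at least 2 libraries. Without that filter its log2 fold change was -1.01 (95% interval -2.47 to 0.44, adjusted p = 0.25 from edgeR), and the adult libraries differed by 2.28 times. Adora3 had at most 0.265 CPM in any library.

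Of the 8 glomus cell markers, 3 passed toward neonates (Chga, Kcnk3 and Cox4i2), 1 toward adults (Th) and 4 did not pass. Over all genes tested 31.2% passed toward neonates and 31.1% toward adults. Chga is also a parathyroid gene and had 1552 CPM in neonate replicate 1 against 740 CPM in neonate replicate 2. It had 848 and 723 CPM in adults, so the ages overlapped and only neonate replicate 1 lay above both adult libraries. Chga was not recomputed without that library. Neuronal markers, 6 of 9 higher in neonates and 1 in adults as given above, had a median log2 fold change of 0.59. The part of glomus cells and of nerve in the Adora2a difference was not tested, and the lists were not shown to separate them.

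**Figure D3:**
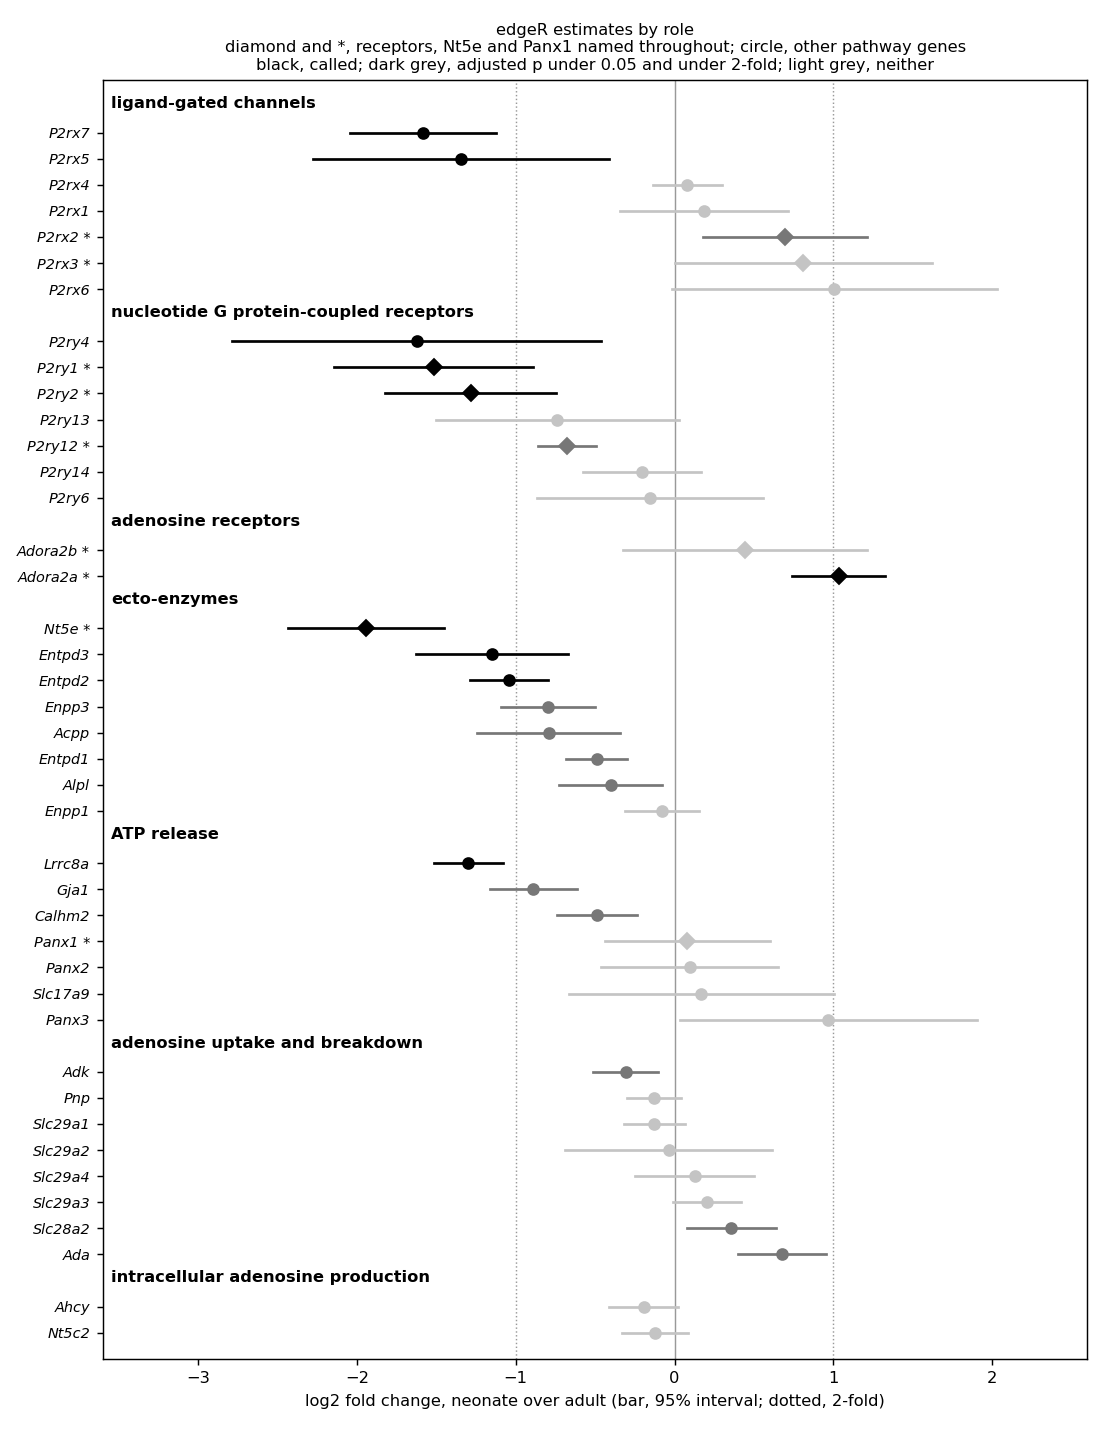
Log2 fold change, neonate over adult, with its 95% interval from edgeR (horizontal axis) for the 41 tested genes of the pathway, grouped by role. Diamonds with an asterisk are the 9 members tested, black marks called genes, dark grey an adjusted p under 0.05 below 2-fold and light grey neither, and the ecto-enzymes lie to the left of 0, with Nt5e the farthest at -1.94.

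Nt5e (ENSRNOG00000011071), the last enzyme on the path from extracellular ATP to adenosine, had the largest change of the members tested. It had 2.53 and 2.93 CPM in neonates and 11.5 and 13.5 CPM in adults, and the higher library of an age was 1.16 times the lower in neonates and 1.18 times in adults. The log2 fold change was -1.94 (standard error 0.22, adjusted p = 8.5e-05 from edgeR), a 3.85-fold difference with a 95% interval of 2.74 to 5.40. It was called toward adults under every alternative run, at log2 fold changes from -2.19 to -1.86.

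Of the 7 other ecto-enzyme genes tested, 6 were higher in adults and Enpp1 did not pass. Entpd2, which cuts ATP to ADP on CB glia, had 56.0 and 49.6 CPM in neonates and 118 and 140 CPM in adults (2.06-fold, adjusted p = 5.7e-05 from edgeR). Entpd3 had 4.10 and 3.92 CPM in neonates and 11.2 and 9.92 CPM in adults (2.22-fold, adjusted p = 0.0014 from edgeR). Without adult replicate 2 or neonate replicate 2 the Entpd2 log2 fold change was -0.95 or -0.92, below 2-fold. Entpd1 (CD39), which cuts ATP to AMP on vessels and immune cells and is named after its value was seen, had 129 and 146 CPM in neonates and 215 and 241 CPM in adults (1.41-fold, adjusted p = 0.0010 from edgeR).

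Enpp3, Alpl and Acpp, further enzymes that split extracellular nucleotides and also named after their values were seen, were 1.74-fold, 1.32-fold and 1.73-fold higher in adults (adjusted p = 0.00075, 0.035 and 0.0071 from edgeR). Alpl lost its adjusted p under 0.05 when neonate replicate 1, neonate replicate 2 or adult replicate 1 was left out (0.089, 0.075 and 0.27 from edgeR). Enpp1, at 26.3 and 28.5 CPM in neonates and 31.9 and 36.7 CPM in adults, did not pass (log2 fold change -0.079, adjusted p = 0.52 from edgeR). With Nt5e, 7 of the 8 ecto-enzyme genes tested were higher in adults at an adjusted p under 0.05, against 31.1% of all genes tested. The median log2 fold change of the 8 was -0.79, where that of all genes tested was -0.0029. The list was chosen with earlier results of these data known, so these values describe it and are no independent test. Entpd8 had 0 reads in all libraries.

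Of the genes that remove adenosine, Ada and Slc28a2 were higher in neonates, Adk was higher in adults and 5 did not pass. Ada, which deaminates adenosine to inosine, had 23.9 and 27.6 CPM in neonates and 17.3 and 20.9 CPM in adults. It was 1.60-fold higher in neonates (adjusted p = 0.0013 from edgeR) and is named after its value was seen. The ratio of Nt5e to Ada reads, chosen on the same grounds and independent of library scaling, was 0.106 in each neonatal library and 0.661 and 0.646 in the adult libraries, a 6.16-fold shift toward Nt5e in adults. Adk, which returns adenosine to AMP inside cells, was 1.24-fold higher in adults (adjusted p = 0.016 from edgeR), without neonate replicate 1 or adult replicate 1 at 0.059 and 0.096.

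The nucleoside carrier gene Slc28a2 was 1.28-fold higher in neonates (adjusted p = 0.032 from edgeR), although its libraries overlapped at 46.6 and 62.6 CPM in neonates and 49.4 and 51.4 CPM in adults. It lost its adjusted p under 0.05 in 6 of 13 alternatives, among them library size alone (log2 fold change 0.12, adjusted p = 0.48 from edgeR). The same happened without neonate replicate 2, adult replicate 1 or adult replicate 2 (adjusted p = 0.165, 0.136 and 0.102 from edgeR). The equilibrative carriers Slc29a1, Slc29a2, Slc29a3 and Slc29a4 and the phosphorylase Pnp did not pass, with adjusted p from 0.088 to 0.92 from edgeR. Of the 8 genes for uptake and breakdown that were tested, 2 were higher in neonates and 1 in adults at an adjusted p under 0.05. By the same rule 31.2% of all genes tested were higher in neonates and 31.1% in adults. Inside the cell, Nt5c2 and Ahcy did not pass (log2 fold changes -0.12 and -0.19, adjusted p = 0.27 and 0.11 from edgeR). With library size alone Enpp1, Slc29a1, Pnp, Nt5c2 and Ahcy did pass toward adults, at log2 fold changes from -0.44 to -0.32.

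Panx1 (ENSRNOG00000010060), the channel for ATP release, did not pass the test. It had 4.76 and 4.88 CPM in neonates and 5.11 and 5.70 CPM in adults, so the adult libraries lay slightly above the neonatal ones before TMM scaling. After scaling its log2 fold change was 0.081 (95% interval -0.44 to 0.60, adjusted p = 0.77 from edgeR). Its direction depends on scaling, at -0.16 with library size alone, and the interval reaches a 1.52-fold difference toward neonates.

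Of the 6 other genes for ATP release tested, 3 were higher in adults at an adjusted p under 0.05, against 31.1% of all genes tested. Lrrc8a, a subunit of the volume-regulated anion channel, had 14.1 and 14.7 CPM in neonates and 41.9 and 42.1 CPM in adults. It was 2.46-fold higher in adults (log2 fold change -1.30, standard error 0.095, adjusted p = 1.1e-05 from edgeR). Gja1, which encodes connexin 43, and Calhm2, both named after their values were seen, were 1.85-fold and 1.40-fold higher in adults (adjusted p = 0.00025 and 0.0045 from edgeR). Slc17a9, the carrier that loads ATP into vesicles, had 1.22 and 1.92 CPM in neonates and 1.59 and 1.71 CPM in adults and did not pass (log2 fold change 0.17, adjusted p = 0.71 from edgeR). Panx2 and Panx3 did not pass (adjusted p = 0.75 and 0.067 from edgeR), and Calhm1 had 0 reads.

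Fibroblasts are among the cells known to carry CD73. The sum of their markers was 5577 and 7023 CPM in neonates and 8936 and 9509 CPM in adults, with Col1a2 not analysed here. Of the 4 tested, Dcn, Lum and Pdgfra were higher in adults and Col1a1 did not pass, and none was at 0. Over all genes tested 31.1% passed toward adults. The median log2 fold change of the list was -0.66. Col1a1 alone had 4676 and 5890 CPM in neonates and 6768 and 6917 CPM in adults. The part of fibroblasts in the Nt5e difference was not tested.

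Over the 40 other pathway genes listed, 32 were tested. Of these, 6 were called toward adults by edgeR (P2rx5, P2rx7, P2ry4, Lrrc8a, Entpd2 and Entpd3), against 13.2% of all genes tested. DESeq2 called 5 of them, losing P2rx5, and limma-voom called 6. Toward neonates 0 of the 32 were called by edgeR, DESeq2 or limma-voom, against 7.68% of all genes tested by edgeR. An unadjusted edgeR p under 0.05 toward neonates was found for 3 of the 32. At an adjusted p under 0.05 and any fold, 13 were higher in adults and 2 in neonates, against 31.1% and 31.2% of all genes tested. With library size alone the 13 became 20. Their median log2 fold change was -0.17. P2rx5 and P2ry4 could be tested only through the adult libraries and Panx3 only through the neonatal ones.

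Reads of overlapping genes may enter these counts, since the strand setting of the counting is not given in the sources used here. On GRCr8, 6 of the 10 members overlap the span of another protein-coding gene. The partners of the members that rose toward adults did not pass the test, with log2 fold changes of -0.028 for Fchsd2 (with P2ry2), 0.071 for Snx14 (with Nt5e) and -0.34 for Med12l (with P2ry12). P2rx3 shares its span with Ssrp1, which was higher in neonates (log2 fold change 0.35, adjusted p = 0.0058 from edgeR). None of the members had a fractional estimated count.

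**Figure D4:**
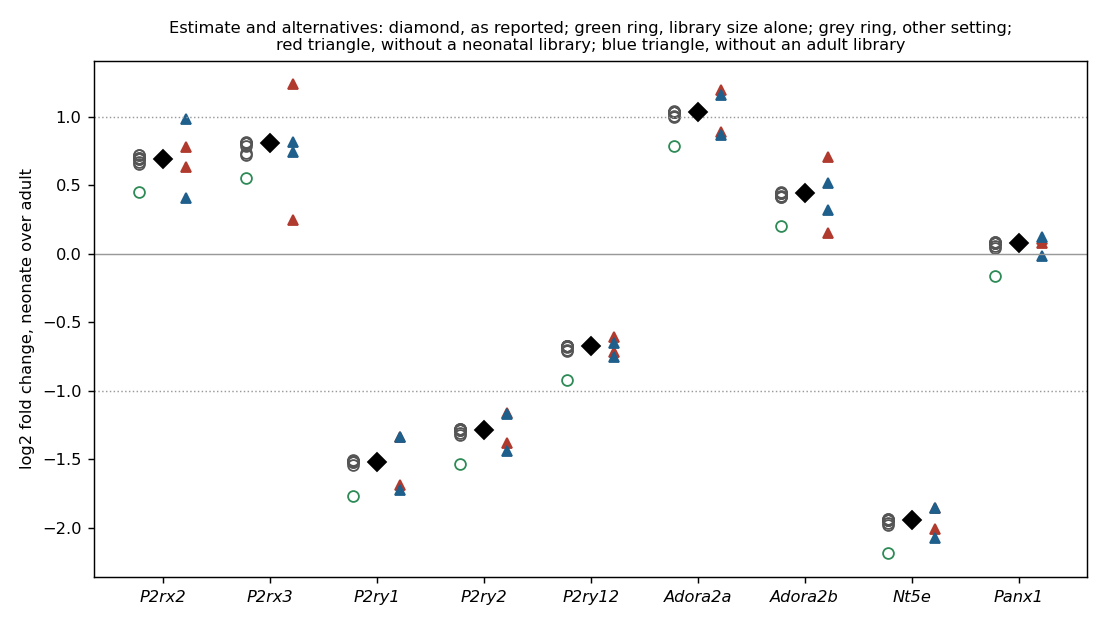
Log2 fold change, neonate over adult (vertical axis), of the 9 members tested as reported (diamonds), with library size alone (green rings), under the other settings (grey rings) and with each library left out (triangles, red for neonatal and blue for adult). Nt5e, P2ry1 and P2ry2 stay below -1, Adora2a lies on both sides of 1, and P2rx3 runs from 0.24 to 1.24 as 1 or the other neonatal library is left out.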

How the data were processed

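RNA of pooled CBs was sequenced by the authors after poly A+ selection, in 2 libraries per age, 4 in all. The deposited values are estimated counts per gene, which the authors made with STAR and Salmon (1.5.2 in the submitters' processing notes) on trimmed reads and Rnor_6.0, taken from transcripts to genes, with no normalization. They hold no authors' comparisons. The library totals are given above, and their depth limits genes near 1 CPM.

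After rounding to whole numbers, edgeR 4.0.16 (R 4.3.3) was used. Genes annotated as other than protein-coding (664 of 32883, by symbol in a RefSeq table of GRCr8) were removed, and the 13843 that reached 1 CPM in no fewer than 2 libraries entered the quasi-likelihood test, neonate over adult, after TMM normalization. Benjamini-Hochberg adjustment ran over all genes tested. Intervals are 95% intervals from the same fit. Alternatives were DESeq2 1.42.0, limma-voom (limma 3.58.1), RLE factors, library size alone, TMM without mitochondrial and ribosomal protein genes, no filter, a mean of at least 5 CPM, all gene types, no minimum fold, a replicate block and each library left out. The procedure was tested on simulated data. Counting intervals came from scipy 1.17.1.

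The members and lists were chosen with earlier results of these data known. Named are all members, the other pathway genes called, and the tested receptors among them; other names are said to be chosen after their values were seen or complete a role's list. Some cell type markers are not reported here, and their lists were summed and counted without them.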

Additional observations from a re-analysis of the deposited data

How the results depend on the processing

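The 41 pathway genes tested were each recomputed under up to 13 settings, and the marker genes were not. Of the values, 471 kept direction and side of an adjusted p of 0.05, 15 lost that p, 13 gained it and 17 changed sign. Nt5e and P2ry2 were called in all settings and P2ry1 in all 12 that kept it among the genes tested. With library size alone the sign changed for Panx1 (-0.16), P2rx1 (-0.064), P2rx4 (-0.17), Panx2 (-0.15), Slc17a9 (-0.072), Slc29a3 (-0.039) and Slc29a4 (-0.12). With 1 library left out, log2 fold changes ran from -0.016 to 0.13 for Panx1, from -0.11 to 0.48 for P2rx1 and from -0.019 to 0.12 for P2rx4, with the changed sign without adult replicate 1, and from -0.38 to 0.064 for P2ry6, with the changed sign without neonate replicate 1. They also ran across 0 for Panx2 (-0.095 to 0.25), Slc17a9 (-0.15 to 0.45), Slc29a2 (-0.38 to 0.26) and Slc29a4 (-0.14 to 0.38). No value with a changed sign passed the test. With library size alone only the scaling differed, and the median log2 fold change over all genes tested was -0.25, against -0.0029 with TMM. The cause of the sign changes with 1 library left out was not tested.

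With library size alone, 0 members were called toward neonates and 1 had an adjusted p under 0.05, and of the other pathway genes 1 passed toward neonates and 20 toward adults, while 704 of all genes were called toward neonates. With a mean of at least 5 CPM, which tests fewer genes and leaves out P2ry1, 2 members were called, 0 of them toward neonates, 1 other pathway gene passed toward neonates, and 1823 of all genes were called, 654 toward neonates and 1169 toward adults. Without a filter 1 other pathway gene passed toward neonates. With no minimum fold, 2 members were called toward neonates, 15 other pathway genes were called (2 toward neonates, 13 toward adults), and 8625 of all genes (4325 and 4300).

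With 1 library left out, members called ranged from 3 to 5, toward neonates from 0 to 2, and members with an adjusted p under 0.05 toward neonates from 1 to 3. Other pathway genes called ranged from 3 to 7, toward adults from 3 to 6 and toward neonates from 0 to 1, and those with an adjusted p under 0.05 toward neonates from 1 to 3. The lowest counts of other pathway genes called came without adult replicate 2. P2rx5 and P2ry4 were not tested without either adult library, since only adult libraries brought them past the filter. A lone library was assumed to vary like the other age.

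With the replicate number as a block, 4 members, 6 other pathway genes and 1071 and 1866 of all genes were called, and the block changed no call among the members. The libraries share only a number, with no pairing in the labels, and same-numbered libraries did not deviate together (correlation across genes of their deviations from the age means -0.015).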
